A study of Mus musculus with 8 samples.

Results

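The transcription factors that direct effector regulatory T cells (Treg) were followed in Treg from bone marrow, called BM-Treg, and from spleen, called SP-Treg. The 9 genes were chosen by name, with earlier results of these data known: Irf4, Prdm1, Gata3, Tbx21, Rora, Maf, Ahr, Eomes and Bhlhe41. All 9 were among the 38215 genes of the deposited tables, and 8 of them were among the 13397 genes with enough counts to be tested, with Eomes below the filter. FoxP3+ cells were isolated by FACS from B6.FoxP3-GFP mice aged 12 weeks, in which FoxP3+ cells carry a green fluorescent protein, and the labels give the genotype of every library as C57Bl/6. BM-Treg replicates 1, 2 and 3 were females of batch 1, whereas BM-Treg replicate 4 and SP-Treg replicates 1 to 4 were males of batch 3. No treatment is given in the labels, and nothing in them pairs a marrow library with a spleen library. The titles of the SP-Treg libraries carry number ranges that overlap, and the sources do not say whether cells of the same mice entered more than 1 library, so that p-values measure the spread between these libraries.

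Resting Treg take on an effector programme after stimulation through the T cell receptor. IRF4, which binds DNA together with BATF and JUN proteins, and BLIMP-1, the product of Prdm1, are known as the central regulators of that programme. Effector Treg can in addition use the factors that define helper T cell lineages: GATA3 of Th2 cells, T-bet (Tbx21) and EOMES of Th1 and cytotoxic cells, and RORα (Rora) and c-MAF (Maf) of Th17 and follicular cells. The aryl hydrocarbon receptor (Ahr) senses dietary and microbial ligands, and BHLHE41 is a repressor best known from the circadian clock and from lymphocytes.

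The libraries held between 12427136 and 21921252 expected counts. At these depths the 3 counts that a value of 0 still allows corresponded to between 0.132 and 0.251 CPM (counts scaled to the size of the library), which covers counting error only. Foxp3 was found at 1270 to 2080 CPM, and the sum of 6 Treg markers (Foxp3, Il2ra, Ctla4, Ikzf2, Cd3e and Cd4) spanned 7220 to 8570 CPM in BM-Treg, overlapping with 7930 to 8750 CPM in SP-Treg. Markers of other cells were low but unequal. The B cell list (Cd79a, Cd79b, Ms4a1 and Pax5) summed to 68.6 CPM in SP-Treg replicate 2 and to 6.26 to 17.8 CPM in the other 7 libraries. The erythroid list (Hba-a1, Hba-a2, Alas2 and Car1) summed to 4.99 to 9.37 CPM in BM-Treg. In SP-Treg it summed to 1.15 CPM in replicate 1 and to 61.4 to 126 CPM in replicates 2 to 4. These erythroid sums overlapped between the tissues through SP-Treg replicate 1 (exact two-sided permutation test, adjusted p = 0.262). The CD8 T cell list (Cd8a and Cd8b1) summed to 10.9 to 12.6 CPM in the marrow and 13.2 to 41.1 CPM in the spleen. The NK cell list (Ncr1, Klrb1c, Klra8, Klra4 and Klre1) was at 0 in all 4 BM-Treg libraries and at 0.647 to 2.47 CPM in SP-Treg. The CD8 T cell and NK cell differences each had an exact two-sided permutation p = 0.0286 and an adjusted p = 0.157 over 11 lists.

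Of the 8 factors tested, Irf4 and Bhlhe41 were lower and Gata3 was higher in BM-Treg, while Prdm1, Tbx21, Rora, Maf and Ahr did not pass the test. These 3 calls used edgeR's quasi-likelihood test with a Benjamini-Hochberg adjusted p below 0.05. Among all genes tested, 8.75% passed in either direction, 3.72% as higher (499 genes) and 5.02% as lower (673 genes) in BM-Treg. The share of calls that were higher in BM-Treg was 42.6% on counts and 63% on log2(FPKM + 1). The libraries of the tissues did not overlap for Irf4, Gata3 and Bhlhe41, as for 16.2% of all genes tested. The median log2 fold change was -0.25 over the 8 factors and -0.012 over all genes tested. In bulk libraries, fewer cells that express a gene and less RNA of that gene per cell cannot be told apart.

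**Figure D1:**
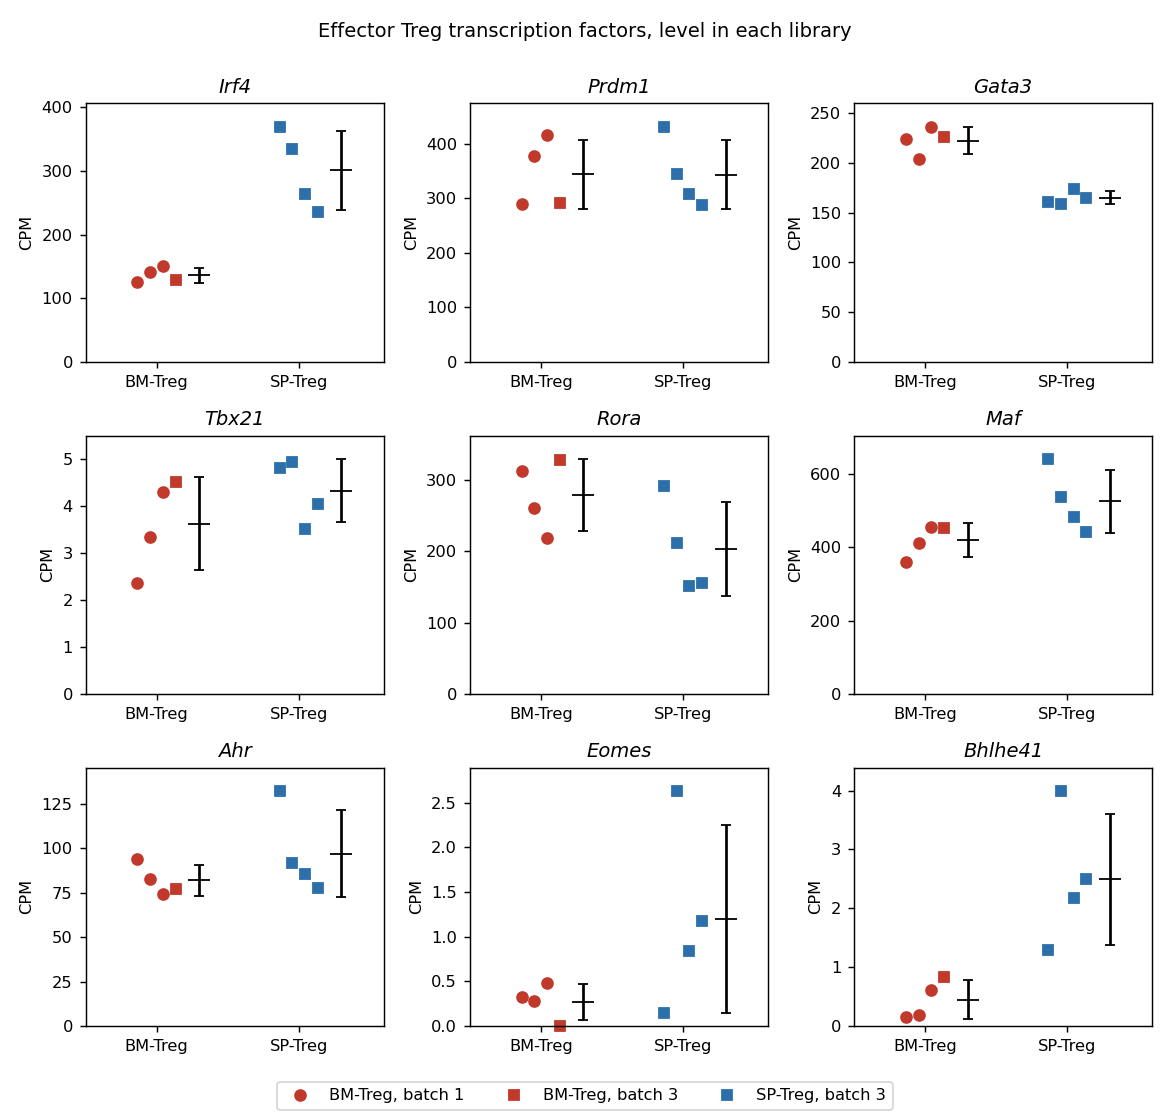
CPM of the 9 factors (linear axes from 0) in 4 BM-Treg and 4 SP-Treg libraries, with the mean and SD (n = 4) as black bars and the batch shown by the shape of the symbol. Irf4 and Bhlhe41 sit lower and Gata3 sits higher in all BM-Treg libraries, while the other factors overlap between the tissues.

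Irf4 (ENSMUSG00000021356, chr13:30749226-30766927, plus strand, GRCm38) carried the best supported difference among the factors. It was at 125, 142, 151 and 128 CPM in BM-Treg replicates 1 to 4, and at 369, 335, 264 and 235 CPM in SP-Treg replicates 1 to 4. Every BM-Treg library lay below every SP-Treg library, and the batch 3 marrow library lay within the range of the batch 1 marrow libraries. BM-Treg averaged 136 ± 12.1 CPM and SP-Treg 301 ± 62.3 CPM (SD, n = 4), or 2.2-fold higher in the spleen. The log2 fold change was -1.14 ± 0.14 (SE, edgeR adjusted p = 0.000392), with a 95% interval of -1.43 to -0.85. The 3 batch 1 marrow libraries gave -1.11 against SP-Treg (edgeR adjusted p = 0.00212). The single batch 3 marrow library gave -1.21 (edgeR adjusted p = 0.0812), in a fit that takes the lone library to vary as the SP-Treg libraries do. With batch as a term, which leaves the tissue difference to batch 3, 1.93% of all genes passed, and of the 8 factors only Irf4 did (log2 fold change -1.23, edgeR adjusted p = 0.0274).

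The deposited transcript table lists 2 Irf4 transcripts. In GENCODE M21 they differ at the start of exon 5 of 9, where ENSMUST00000021784 holds 3 additional bases and therefore 1 additional codon. The sequences across this junction are shown because a read can tell the transcripts apart only there. The capitals mark the added bases, exon 5 starts at position 30753445 or 30753448 of chromosome 13 (GRCm38, plus strand), and the first 15 bases belong to exon 4.
ENSMUST00000021784: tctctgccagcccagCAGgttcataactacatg
ENSMUST00000110307: tctctgccagcccaggttcataactacatg
The longer transcript took 50.9%, 45.9%, 77.6% and 63.4% of the Irf4 expected counts in BM-Treg replicates 1 to 4. It took 51.3%, 50.9%, 56.9% and 55.4% in SP-Treg replicates 1 to 4. Both forms were thus present in every library, and BM-Treg varied more between libraries, with replicate 3 the highest. The means of 59.4% ± 14.2 and 53.6% ± 2.99 (SD, n = 4) overlapped (exact two-sided permutation test, p = 0.486), and these estimates rest on a junction of 3 bases.

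Prdm1 (ENSMUSG00000038151) was equal in the tissues on average. It was at 290, 378, 416 and 291 CPM in BM-Treg replicates 1 to 4, and at 431, 345, 308 and 287 CPM in SP-Treg replicates 1 to 4. The groups covered the same range, from about the level of BM-Treg replicate 1 up to that of SP-Treg replicate 1. The means were 344 ± 63.6 and 343 ± 63.4 CPM (SD, n = 4), with a log2 fold change of 0.00 ± 0.15 (SE, edgeR adjusted p = 0.991). The 95% interval of -0.32 to 0.32 comes from the fit without a batch term and covers only the spread between these libraries. The single batch 3 marrow library gave -0.22 and the batch 1 libraries 0.08, neither of which passed the test. The leading Prdm1 transcript took 96.9% of the counts in both tissues.

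Within a library, Irf4 and Prdm1 changed their proportion between the tissues. The log2 ratio of Irf4 to Prdm1 in CPM was -1.46 to -1.18 in BM-Treg and -0.29 to -0.04 in SP-Treg. The groups did not overlap, and their means of -1.32 ± 0.14 and -0.20 ± 0.11 (SD, n = 4) differed by -1.12. The exact two-sided permutation p was 0.0286, the smallest that 4 against 4 libraries allow, and stayed at 0.0286 after adjustment over the 2 ratios tested. SP-Treg replicate 1 was the highest SP-Treg library for both genes, and without it the mean ratios differed by -1.132. In batch 3 alone the ratios differed by -0.989, with 1 marrow library and no test.

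**Figure D2:**
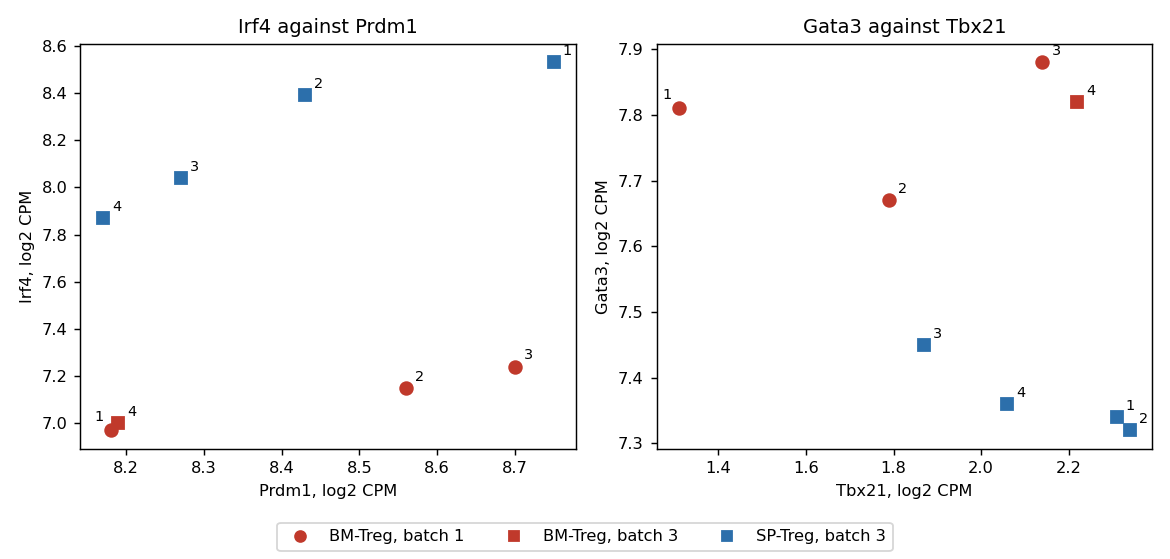
Log2 CPM of Irf4 against Prdm1 and of Gata3 against Tbx21, 1 symbol per library with its replicate number; neither axis starts at 0. At like levels of Prdm1 the BM-Treg libraries lie lower for Irf4 than the SP-Treg libraries, and Gata3 is higher in BM-Treg across the shared range of Tbx21.

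Gata3 (ENSMUSG00000015619), which specifies Th2 cells and also supports Treg of barrier tissues, was the only one of the 8 factors that passed as higher in BM-Treg. It was at 224, 204, 236 and 226 CPM in BM-Treg replicates 1 to 4, and at 161, 159, 174 and 165 CPM in SP-Treg replicates 1 to 4. Every BM-Treg library lay above every SP-Treg library, with a narrow spread in both tissues. The means were 222 ± 13.4 and 165 ± 6.59 CPM (SD, n = 4), or 1.35-fold higher in BM-Treg. The log2 fold change was 0.43 ± 0.09 (SE, edgeR adjusted p = 0.00906, 95% interval 0.24 to 0.63). The difference was of like size in the batch 1 (0.42, edgeR adjusted p = 0.0217) and batch 3 marrow libraries (0.47, edgeR adjusted p = 0.213). The call was lost with a batch term (edgeR adjusted p = 0.11) and on log2(FPKM + 1) (0.41, limma adjusted p = 0.0728). An ILC2 and Th2 list (Il4, Il5, Il13 and Il17rb) was at 17.1 to 26.5 CPM in BM-Treg against 9.11 to 21.3 CPM in the spleen, and 3 of its 4 genes, the cytokines Il4, Il5 and Il13, were below the filter. Its part in the Gata3 difference was not tested.

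Tbx21 (ENSMUSG00000001444), the Th1 factor, was low in both tissues. It was at 2.36, 3.34, 4.3 and 4.52 CPM in BM-Treg replicates 1 to 4, and at 4.82, 4.95, 3.52 and 4.04 CPM in SP-Treg replicates 1 to 4. The groups overlapped, with BM-Treg replicates 1 and 2 the lowest libraries. BM-Treg minus SP-Treg gave -0.26 ± 0.28 on the log2 scale (SE, edgeR adjusted p = 0.618) with a 95% interval of -0.85 to 0.33, and the sign turned in batch 3 (0.08). Relative to Tbx21 in the same library, Gata3 was higher in BM-Treg: the log2 ratio was 5.61 to 6.49 there and 4.97 to 5.58 in SP-Treg. The means differed by 0.71 with no overlap (exact two-sided permutation test, p = 0.0286), and by 0.384 in batch 3 alone, with 1 marrow library and no test.

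Eomes (ENSMUSG00000032446), a T-box factor of cytotoxic and NK cells, did not reach the filter. Its expected counts were 6, 6, 11 and 0 in BM-Treg replicates 1 to 4, and 2, 33, 10 and 16 in SP-Treg replicates 1 to 4. The groups overlapped through SP-Treg replicate 1, and the total was 23 counts in BM-Treg and 61 in SP-Treg. In CPM the means were 0.272 ± 0.201 and 1.2 ± 1.05 (SD, n = 4, exact two-sided permutation test, p = 0.143). The count of 0 in BM-Treg replicate 4 allows up to 0.251 CPM, so that a lower level in that library was not detectable at this depth. Within SP-Treg the NK cell list was at 0.647 CPM in replicate 1, the lowest for Eomes, and at 2.47 CPM in replicate 2, the highest for Eomes. Replicates 3 and 4 stood in opposite order, at 1.84 and 1.62 CPM for the list and 0.837 and 1.18 CPM for Eomes. In BM-Treg the list was at 0 in replicates 1 to 4, while replicates 1 to 3 held Eomes counts. The part of NK cells in the Eomes counts was not tested.

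Rora (ENSMUSG00000032238), a nuclear receptor of Th17 cells, innate lymphoid cells and tissue Treg, was spread widely within both tissues. It was at 312, 260, 218 and 328 CPM in BM-Treg replicates 1 to 4, and at 292, 212, 151 and 156 CPM in SP-Treg replicates 1 to 4. The groups overlapped because SP-Treg replicate 1 lay among the BM-Treg libraries. The means were 279 ± 50.3 and 203 ± 65.5 CPM (SD, n = 4), with a log2 fold change of 0.46 ± 0.21 (SE, edgeR adjusted p = 0.228) and a 95% interval of -0.01 to 0.94. The outcome of the test rested on 1 library: without SP-Treg replicate 1, BM-Treg was higher by 0.71 on the log2 scale (edgeR adjusted p = 0.0178). SP-Treg replicate 1 was also the lowest SP-Treg library for erythroid markers (1.15 CPM against 61.4 to 126 CPM) and for B cell markers (6.26 CPM). The part of these differences in its Rora level was not tested.

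Maf (ENSMUSG00000055435), which drives Il10 and follicular programmes, was at 359, 413, 455 and 454 CPM in BM-Treg replicates 1 to 4. It was at 641, 538, 484 and 441 CPM in SP-Treg replicates 1 to 4. Only SP-Treg replicate 4 fell within the range of BM-Treg. The log2 fold change was -0.32 ± 0.13 (SE, edgeR adjusted p = 0.133), so that Maf did not pass, and its 95% interval of -0.59 to -0.05 is not adjusted for the number of genes. The antisense gene Gm15655 overlaps Maf on the opposite strand with a count of 2.31% of that of Maf, and the strand setting of the counting is not given in the sources used here. The leading Maf transcript ENSMUST00000109104 took 82.7% to 83.8% of the counts in BM-Treg and 84.4% to 87.7% in SP-Treg. These shares did not overlap (exact two-sided permutation test, p = 0.0286), and the adjusted p over the 6 factors with such a test was 0.171.

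Ahr (ENSMUSG00000019256) was at 94.1, 82.5, 74.3 and 77 CPM in BM-Treg replicates 1 to 4, and at 132, 91.9, 85.3 and 77.8 CPM in SP-Treg replicates 1 to 4. The groups overlapped, and SP-Treg replicate 1 stood highest. The log2 fold change was -0.24 ± 0.15 (SE, edgeR adjusted p = 0.368, 95% interval -0.56 to 0.08), and it was -0.04 without SP-Treg replicate 1. Among 6 well expressed factors (Irf4, Prdm1, Gata3, Rora, Maf and Ahr), SP-Treg replicate 1 was the highest library of its tissue for 5, all but Gata3.

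Bhlhe41 (ENSMUSG00000030256) had the largest fold change of the 8 factors and rested on the fewest counts. Its expected counts were 3, 4, 14 and 10 in BM-Treg replicates 1 to 4, and 18, 50, 26 and 34 in SP-Treg replicates 1 to 4. Every BM-Treg library lay below every SP-Treg library, and the batch 1 libraries 1 and 2 were the lowest. The means were 0.45 ± 0.33 and 2.49 ± 1.12 CPM (SD, n = 4), or 5.68-fold higher in SP-Treg by the fit. The log2 fold change was -2.50 ± 0.56 (SE, edgeR adjusted p = 0.0124), and its 95% interval of -3.71 to -1.30 was the widest of the 8. The log2 fold change was -2.89 in the batch 1 marrow libraries, which came from females (edgeR adjusted p = 0.0121). It was -1.54 in the single batch 3 marrow library, which came from a male. BM-Treg replicate 3 of batch 1 (0.614 CPM) lay nearer to replicate 4 (0.836 CPM) than to replicates 1 and 2 (0.164 and 0.186 CPM). The call was lost with a batch term (edgeR adjusted p = 0.361) and on log2(FPKM + 1), where low values are compressed (-0.33, limma adjusted p = 0.147). SP-Treg replicate 2, the highest library for Bhlhe41 with 3.99 CPM, was also the highest for B cell markers, and leaving it out gave -2.18 (edgeR adjusted p = 0.0453). The B cell markers summed to 10.1 to 13.8 CPM in BM-Treg, within the range of SP-Treg, but most of that sum was Cd79b (mean 8.09 CPM, against 9.62 CPM in the spleen). The other 3 markers had lower means in BM-Treg, at 2.2 against 10.4 CPM for Cd79a, 0.925 against 4.37 CPM for Ms4a1 and 0.189 against 2.01 CPM for Pax5, with their ranges overlapping. The part of B cells in the Bhlhe41 difference was not tested.

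**Figure D3:**
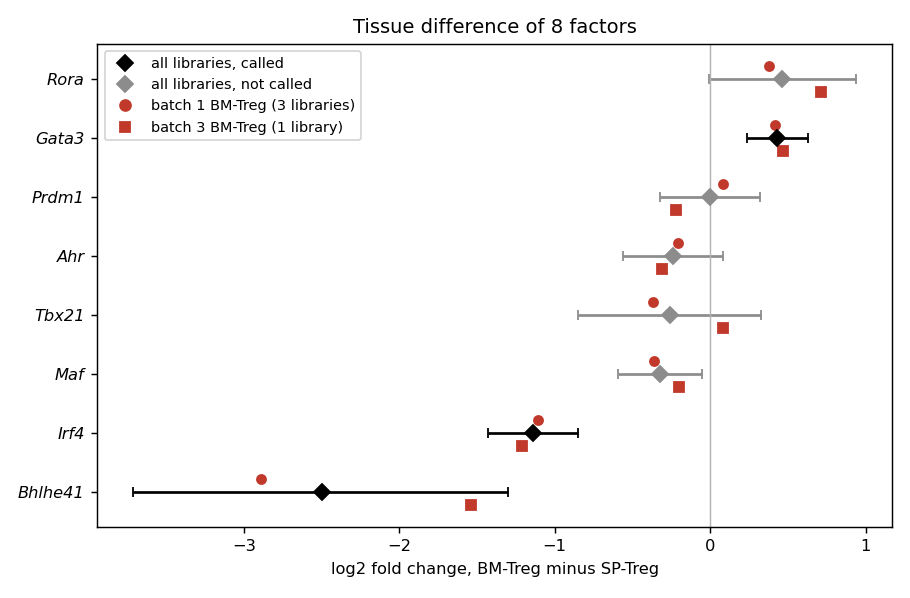
Log2 fold change (BM-Treg minus SP-Treg, edgeR) of the 8 factors tested, with 95% intervals for all 8 libraries as diamonds and the values for the batch 1 and batch 3 marrow libraries against the same SP-Treg libraries as circles and squares. Irf4 and Gata3 hold nearly the same value in both batches (-1.11 and -1.21, 0.42 and 0.47), while Bhlhe41 moves from -2.89 to -1.54 and Prdm1 and Tbx21 take opposite signs.

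Levels of different factors were compared per transcript length. In BM-Treg, Gata3 (89.4 ± 11.2 FPKM), Maf (79.8 ± 7.85) and Prdm1 (75.0 ± 15.7) led, and these neighbours overlapped (SD, n = 4). Rora (32.2 ± 4.97 FPKM) and Irf4 (30.1 ± 3.42 FPKM) followed with overlap, and Ahr (19.0 ± 1.37 FPKM) lay below both. In SP-Treg, Irf4 (63.8 ± 16.8 FPKM) stood beside Maf (93.9 ± 21.9), Prdm1 (70.5 ± 16.5) and Gata3 (66.6 ± 5.35), whose ranges overlapped from each to the next. Ahr (22.3 ± 6.46 FPKM) and Rora (21.4 ± 7.91 FPKM) overlapped below them. Tbx21 was at 1.53 ± 0.384 FPKM in BM-Treg and 1.76 ± 0.352 FPKM in SP-Treg. Bhlhe41 and Eomes were at or below 0.395 FPKM on average in either tissue and overlapped each other. These gene values include short transcripts with few counts, which weigh heavily after scaling to length. The leading Gata3 transcript took 96.9% of the counts in BM-Treg and 96% in SP-Treg, but held 70.2 and 49.2 FPKM. The leading Prdm1 transcript held 65.6 FPKM in BM-Treg and 63 FPKM in SP-Treg. The order of factors with like levels therefore depends on these short transcripts.

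**Figure D4:**
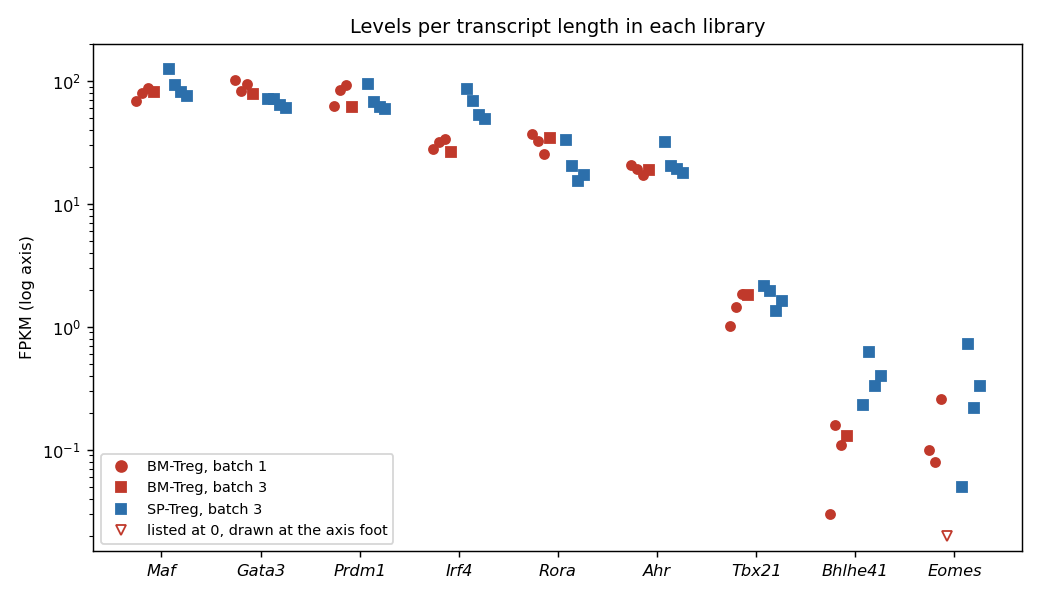
FPKM of the 9 factors in each library on a log axis, ordered by their mean over all libraries, with a library listed at 0 drawn as an open triangle. Irf4 is near 30.1 FPKM beside Rora in BM-Treg and near 63.8 FPKM beside Prdm1 and Gata3 in SP-Treg, and Tbx21, Bhlhe41 and Eomes lie far below the other 6.

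The genes whose levels over the 8 libraries were most like those of each factor were ranked by the root mean square difference in log2 CPM after centring each gene on its mean. For Irf4 these were Igf1r, the receptor of insulin-like growth factor 1 (0.098), and Arhgap39 (0.121), with log2 fold changes of -1.13 and -1.08. For Gata3 they were Hmga1 and Rab5c (0.067 and 0.07), both with a log2 fold change of 0.38. For Bhlhe41 they were Dtx1 and Hey1 (0.576 and 0.579), both linked to the NOTCH pathway, with log2 fold changes of -2.23 and -1.93. Ahnak and Ptpn4 were nearest to Rora (0.109 and 0.15), and Stk17b and Cpox to Maf (0.079 and 0.082). Arl5a and Pttg1ip were nearest to Prdm1 (0.059 and 0.078), Adam10 and Atp2c1 to Ahr (0.064 and 0.066), and Coasy and BC026585 to Tbx21 (0.112 and 0.121). These are descriptions over 8 libraries that include the tissue difference itself.

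Dimer partners, paralogs and antagonists of the factors were next counted in the same fit. The list was chosen with earlier results of these data known, so that its share of calls is a description only. Of 27 genes, 21 were tested and 6 passed, 3 higher and 3 lower in BM-Treg, where 8.75% of all genes tested passed. Their median log2 fold change was -0.19, against -0.012 over all genes tested. The partners of IRF4 did not move one way. Batf was lower (122 ± 27.9 against 180 ± 26 CPM, log2 fold change -0.56, edgeR adjusted p = 0.0483), whereas Junb (162 ± 37.6 against 65.4 ± 25.2 CPM, 1.31, edgeR adjusted p = 0.0216) and Jund (53.3 ± 13.1 against 34.4 ± 5.31 CPM, 0.63, edgeR adjusted p = 0.036) were higher. Id2, an inhibitor of E proteins that accompanies effector states, was higher (33.6 ± 8.37 against 21.2 ± 1.99 CPM, 0.66, edgeR adjusted p = 0.0246). Bcl6, the antagonist of BLIMP-1, was lower (31.6 ± 5.31 against 58.5 ± 9.71 CPM, -0.89, edgeR adjusted p = 0.00227), as was Tcf7, the factor of resting and follicular T cells (68.5 ± 16.4 against 181 ± 34.4 CPM, -1.40, edgeR adjusted p = 9e-04). Bhlhe40, the close paralog of Bhlhe41, was far more abundant than Bhlhe41 and did not pass (132 ± 57.8 against 182 ± 32.1 CPM, -0.46, edgeR adjusted p = 0.413). Arnt, the dimer partner of AHR, did not pass either (112 ± 18.8 against 102 ± 6.34 CPM, 0.14, edgeR adjusted p = 0.527). In batch 3 alone the 6 called genes kept their sign. With a batch term the call held for Tcf7 (edgeR adjusted p = 0.0267) and was lost for the other 5 (edgeR adjusted p from 0.0528 to 0.303).

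Genes known as targets of the factors, or linked to them in T cells, were split in direction. These genes too were chosen with earlier results of these data known, so that their share of calls is a description only. Of 42 genes, 33 were tested and 11 passed, 6 higher and 5 lower in BM-Treg. Among all genes tested, 8.75% passed in either direction, 3.72% as higher and 5.02% as lower. Their median log2 fold change was 0.01, against -0.012 over all genes tested. With a batch term, Cxcr5, Klrg1, Il1rl1, Il9r and Tnfrsf25 still passed. The calls for Icos (edgeR adjusted p = 0.4), Tigit (0.216), Gzmb (0.252), Il7r (0.0706), Tiparp (0.416) and Itgae (0.289) were lost. All 10 genes linked to Irf4 and Prdm1 were tested, and their median was -0.55. Among them Cxcr5, the receptor of B cell follicles (23.2 ± 3.62 against 67.6 ± 14.1 CPM, log2 fold change -1.54), Tigit (348 ± 78.6 against 558 ± 60.5 CPM, -0.68), Gzmb (16.6 ± 2.36 against 26 ± 6.57 CPM, -0.65) and Icos (1090 ± 111 against 1530 ± 319 CPM, -0.49) were lower in BM-Treg. Klrg1, a surface receptor of terminally differentiated effector Treg, went the other way (234 ± 62.5 against 111 ± 3.98 CPM, 1.07). Ctla4 (-0.21, edgeR adjusted p = 0.322) and Tnfrsf9 (-0.65, edgeR adjusted p = 0.13) did not pass.

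The lists for Gata3 and for Rora and Maf were likewise chosen with earlier results of these data known. Of the 5 tested genes linked to Gata3, 2 passed, both higher in BM-Treg, where 3.72% of all genes tested passed as higher. They were Il1rl1, which encodes the IL-33 receptor ST2 (67.8 ± 9.74 against 32.9 ± 7.91 CPM, log2 fold change 1.04, edgeR adjusted p = 0.00244), and Il9r (40.3 ± 4.27 against 13.2 ± 2.9 CPM, 1.61, edgeR adjusted p = 8.15e-05). Ccr4 (0.18) and Areg (-0.34) did not pass. The cytokine genes Il4, Il5 and Il13 were below the filter. Of the 4 tested genes linked to Rora and Maf, Tnfrsf25, a death domain receptor of Treg (22.9 ± 5.61 against 12.9 ± 2.25 CPM, 0.82, edgeR adjusted p = 0.0136), and Il7r (599 ± 20.3 against 339 ± 71.3 CPM, 0.82, edgeR adjusted p = 0.00218) were higher. Ccr2 (0.62, edgeR adjusted p = 0.144) and Il23r (-0.26) did not pass.

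Of 9 tested genes linked to Tbx21 and Eomes, 0 passed in edgeR, where 8.75% of all genes tested passed. Among these 9 genes, 1 had an unadjusted p below 0.05 in edgeR, 1 passed in DESeq2 and 1 in limma-voom. The median log2 fold change of the 9 genes was 0.34. The most abundant of them were Il2rb (931 ± 135 against 1090 ± 40.2 CPM, log2 fold change -0.23, edgeR adjusted p = 0.236) and Cxcr3 (101 ± 34 against 79.7 ± 16.5 CPM, 0.34, edgeR adjusted p = 0.447). The 5 tested genes linked to Ahr included 1 call in each direction. Tiparp, a direct AHR target that feeds back on the receptor, was higher in BM-Treg (32.3 ± 4.45 against 21.3 ± 3.74 CPM, 0.60, edgeR adjusted p = 0.0222). Itgae, which encodes the integrin CD103, was lower (164 ± 20.3 against 307 ± 101 CPM, -0.91, edgeR adjusted p = 0.0276). Entpd1 (-0.01) and Gpr15 (0.11) did not pass, and Cyp1a1, Cyp1b1 and Il22 were below the filter.

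**Figure D5:**
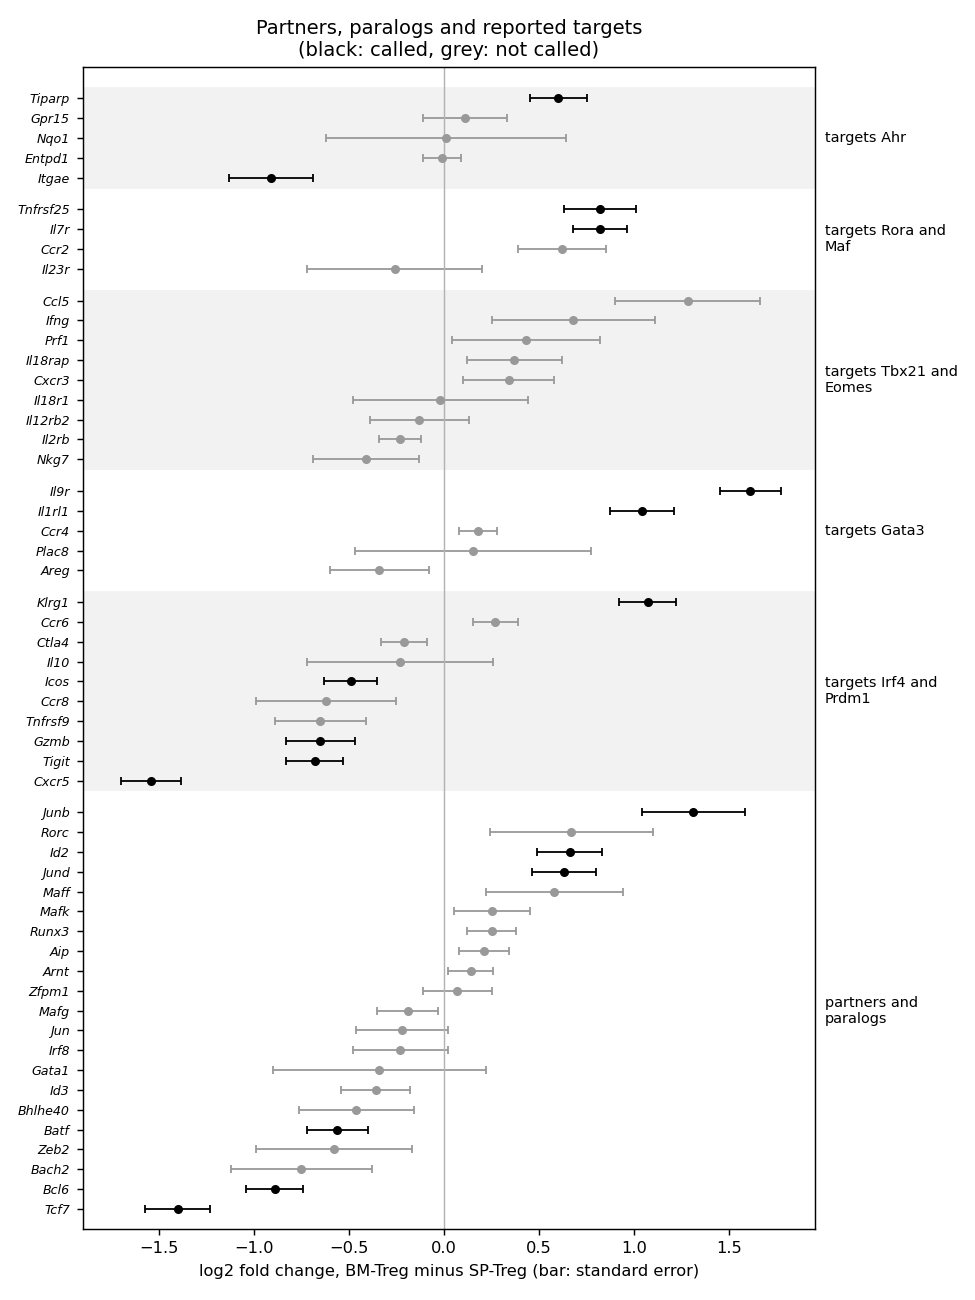
Log2 fold change (BM-Treg minus SP-Treg, edgeR) with its SE for the tested partners, paralogs and linked genes of the factors, grouped by list, with genes that passed the test in black. The genes linked to Irf4 and Prdm1 lie mostly below 0 (median -0.55) with Klrg1 at 1.07, and those linked to Gata3 that passed, Il9r and Il1rl1, lie above 0.

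The promoters of Irf4 and Bhlhe41, the 2 factors that passed as lower, are shown as sequence of RefSeq on GRCm38.p6, up to the base before the first annotated exon. Promoter windows were at hand for 7 of the 9 factors, all but Maf and Ahr, and none is shown for Gata3, whose window lies within exons of other Gata3 transcripts. Capitals mark the AHR core (GCGTG, on the opposite strand as printed) for Irf4 and the E-box that BHLHE41 itself can bind (CACGTG) for Bhlhe41. The Irf4 window is chr13:30748983-30749225 on the plus strand and the Bhlhe41 window is chr6:145865559-145865670 on the minus strand.
Irf4: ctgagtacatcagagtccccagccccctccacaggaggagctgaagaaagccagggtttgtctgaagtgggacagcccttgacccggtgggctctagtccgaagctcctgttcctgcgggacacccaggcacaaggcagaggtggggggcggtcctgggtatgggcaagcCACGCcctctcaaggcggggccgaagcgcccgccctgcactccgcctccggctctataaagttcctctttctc
Bhlhe41: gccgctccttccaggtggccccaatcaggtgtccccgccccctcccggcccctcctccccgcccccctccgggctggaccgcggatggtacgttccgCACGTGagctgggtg
Within 250 bases before the start, searched on both strands, the E-box was found for Bhlhe41 and for none of the other 6 factors, against 6.02% of 32851 promoter windows. The AHR core was found for Irf4, Prdm1, Rora and Bhlhe41, against 28.2% of windows. Neither of the 2 matches for Bhlhe41 lies within the printed part, which ends before the first annotated exon. An IRF site (GAAANNGAA, 7.13% of windows) was found for Eomes and a MAF core (TGCTGA, 16.1% of windows) for Gata3. The BLIMP-1 site (GAAAGTGAA, 0.481% of windows), GATA site (AGATAA, 9.99%), T-box site (AGGTGTGA, 1.12%) and ROR site (NTAGGTCA, 2.22%) were found for none of the 7. These matches describe letters only.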

How the data were processed

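RNA (15 ng) was amplified by SPIA and sequenced from a single end (80 nt). Per the submitters' processing notes the authors used cutadapt 1.9, STAR 2.5.2a, RSEM 1.2.30 and GRCm38. The annotation release and the strand setting are not given in the sources used here. The authors deposited expected counts (estimated reads per gene and transcript, not normalized between libraries) and FPKM values (scaled by the authors to transcript length and depth). The factors and all gene lists were chosen with earlier results of these data known.

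Expected counts were rounded, filtered by edgeR's default rule on the tissues, TMM normalized and tested with edgeR 4.0.16 (quasi-likelihood, robust, no covariate, R 4.3.3), with Benjamini-Hochberg adjustment over 13397 genes and a threshold of 0.05. CPM used the same library sizes, and log2 CPM a prior count of 2. Total counts of 12427136 to 21921252 per library set the precision, and amplification without molecular identifiers means that counting error is a lower limit. Ratios, transcript shares (mean of at least 20 counts) and summed markers (pseudocount 0.5) were compared by exact two-sided permutation tests. Of 124 list entries, 119 were in the tables, and 1 further B cell marker is not reported here. The genes named were the 9 factors, the genes of each list that passed together with the 2 uncalled ones of highest mean CPM, and the 2 genes most like each factor. For marker lists only totals and their genes are named. Alternatives used DESeq2 1.42.0 and limma 3.58.1, other filters, FPKM, a batch term, batch 3 alone, a replicate block and each library left out. The test was tried on simulated counts.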

Additional observations from a re-analysis of the deposited data

Results flagged for a closer look

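In 2 of 56 groups of 4 libraries, 1 library stood apart by Dixon's test on the ratio of its gap to the range, where chance alone gives about 1 in 20. Both were SP-Treg replicate 1, which was low for plasma cell markers (ratio 0.842, 0.719 CPM against 1.68 to 1.93 CPM in the other SP-Treg libraries) and for erythroid markers (ratio 0.835, 1.15 CPM against 61.4 to 126 CPM). The ratios were taken on log2 of the summed CPM plus 0.5, which spreads low values, and not on the CPM printed here. In BM-Treg the erythroid markers summed to 4.99 to 9.37 CPM, below SP-Treg replicates 2 to 4. SP-Treg replicate 1 was the highest library of its tissue for Irf4, Prdm1, Rora, Maf and Ahr. The part of its composition in those levels was not tested. Of the plasma cell list, 3 of 5 genes were in the table, and they summed to 0.719 to 1.93 CPM in SP-Treg. Plasma cells express Prdm1 strongly, and their part in its level was not tested.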

How the results depend on the processing

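Irf4, Gata3 and Bhlhe41 passed whichever of the 8 libraries was omitted, and Bhlhe41 could not be fitted where 10 counts were required in every library. With FPKM values, 765 genes (log2(FPKM + 1), 63% of them higher in BM-Treg) and 728 genes (log2(FPKM + 0.1), 62.4% higher) passed, against 1172 (42.6% higher), with 1 factor (Irf4) and 6 linked genes on either scale. With a batch term 258 genes, 1 factor, 2 partners and 5 linked genes passed, and in batch 3 alone 79 genes, 0 factors, 2 partners and 4 linked genes. At an adjusted p of 0.01 there were 427 genes, 2 factors (Irf4 and Gata3), 2 partners and 5 linked genes. Bhlhe41 did not pass that threshold (edgeR adjusted p = 0.0124). Leaving out 1 library gave 690 (without BM-Treg replicate 2) to 1048 genes, 3 to 4 factors, 2 to 5 partners and 8 to 10 linked genes. The partners fell to 2 without BM-Treg replicate 4 and to 3 without SP-Treg replicate 2 or SP-Treg replicate 3. The cause of these changes was not tested.

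The Prdm1 value turned to -0.236 with a batch term and -0.219 in batch 3 alone, and ran from -0.101 to 0.152 without single libraries. Tbx21 turned to 0.059 and 0.077 in the same 2 settings. None of these passed. The Irf4 to Prdm1 ratio differed by -1.141 and the Gata3 to Tbx21 ratio by 0.626 on FPKM (exact permutation tests, adjusted p = 0.0571 for both), and by -0.989 and 0.384 in batch 3 alone, with no test. Without single libraries they ran from -1.167 to -1.071 and from 0.52 to 0.827. The exact permutation adjusted p was 0.0286 for both without SP-Treg replicate 3 and 0.0571 where any other library was left out. Because the adjustment runs over both ratios together, a larger p of either ratio also raises the adjusted p of the other. The shared values of 0.0571 therefore do not show which ratio weakened. The tissue difference in the leading transcript's share ran from -0.246 to 10.3 percentage points for Irf4 and from -0.298 to 0.257 for Prdm1. Log2 differences of marker sums ran from -0.056 to 0.692 (pDC), -1.388 to 0.147 (neutrophil) and -0.207 to 0.134 (mast cell and basophil). Their main values were 0.45, -0.42 and -0.06, those of the plasma cell and macrophage lists -1.08 and -1, and none of these lists passed.

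The labels' replicate numbers cannot pair the tissues for replicates 1 to 3, where BM-Treg came from females and SP-Treg from males. The correlations of deviations between libraries of the same number were -0.106, 0.0595, -0.176 and 0.0398. With a replicate block, which follows these numbers only, 948 genes, 3 factors, 4 partners and 9 linked genes passed.

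Marrow holds 1 library of batch 3 and spleen none of batch 1, so that batch, sex and tissue cannot be told apart for the batch 1 libraries. Bhlhe41 and Eomes are limited by depth.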
